A study of Mus musculus with 32 samples.

Results

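The SoxB genes encode transcription factors of the SOX family that mark the neural plate and neural tube. They were taken as the rows of the deposited count table whose Ensembl identifier maps to Sox1, Sox2, Sox3 or Sox21, and all 4 were found among 55414 identifiers, 52081 of which carry a gene symbol. The study profiled RNA from whole mouse embryos by QuantSeq 3′ FWD, a method that sequences the 3′ end of polyadenylated RNA and gives about 1 tag per transcript. Commd10Null embryos carry, on both alleles, a Vav1-iCre transgene that is integrated in an intron of Commd10, and WT embryos do not carry it. Both genotypes came from crosses between heterozygous (Commd10Het) mice of the strain B6.Cg-Commd10Tg(Vav1-icre)A2Kio/J, and the embryos were dissected out of their yolk sacs. There were 3 Commd10Null and 10 WT libraries at embryonic day 8.5 (E8.5), 3 Commd10Null and 9 WT libraries at E9.5, and 3 Commd10Null and 4 WT libraries at E10.5. Every mutant thus also carried the iCre transgene, whose Vav1 promoter is known for blood cells, and the effect of the transgene and that of the lost gene cannot be told apart. The study's methods speak of biological repeats and the labels number the replicates, but neither says which embryos shared a litter. The p-values thus measure the spread between these libraries.

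Sox1, Sox2 and Sox3 form the SoxB1 group of transcriptional activators. They bind DNA through a high-mobility-group domain, often beside a POU or PAX partner, and keep neural cells in a proliferating progenitor state while holding back neuronal differentiation. Sox2 and Sox3 are made already in the epiblast, whereas Sox1 appears as cells commit to a neural fate. Sox2 is also made in foregut endoderm and in sensory placodes. Sox21 belongs to the SoxB2 group, which shares the DNA-binding domain but represses transcription, opposes SoxB1 proteins and favours neuronal differentiation.

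The libraries held 7025188 to 9069005 counts (median 7971614), and the 4 genes together made up 6841 (Sox1), 22391 (Sox2), 16475 (Sox3) and 9005 (Sox21) of them. Levels are given as CPM, counts scaled to a common library size, on 1 TMM scale over all 32 libraries. Commd10 itself was at 58.7 to 94.0 CPM in Commd10Null libraries, against 36.2 to 55.7 CPM in WT libraries, but a tag from the 3′ end lies downstream of the insertion and checks neither the genotype nor the protein. Some libraries stood apart in the levels of other tissues. Commd10Null E9.5 replicate 3 had 4653 CPM summed over 9 yolk sac endoderm genes, against 168 and 553 CPM in the other two of its group. WT E10.5 replicate 1 had 1126 CPM for that sum, against 61.5 to 71.6 CPM in the other WT E10.5 libraries. WT E8.5 replicates 6 and 8 were set apart by the members themselves, with low Sox1 (5.50 and 3.00 CPM) and Sox21 (13.4 and 7.32 CPM). They also had the lowest sums of 25 neural progenitor genes in their group (475 and 288 CPM), with 544 CPM the next. This pair was chosen after seeing the low values, so SoxB results without it are no independent support. Where leaving these libraries out ended or gave a call of a gene named below, or clearly moved the count of a list, the value without them stands beside the result.

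The members lie on different chromosomes, and in the GENCODE annotation of GRCm38 each has 1 exon. Sox1 (ENSMUSG00000096014) lies on the plus strand of chromosome 8 at 12395295-12400126, Sox2 (ENSMUSG00000074637) on the plus strand of chromosome 3 at 34650405-34652461, Sox3 (ENSMUSG00000045179) on the minus strand of chromosome X at 60891366-60893430, and Sox21 (ENSMUSG00000061517) on the minus strand of chromosome 14 at 118233232-118237030. Sox2 lies inside the long noncoding gene Sox2ot, and Sox1 inside Sox1ot, in both cases on the same strand, and Sox21 overlaps the noncoding gene Gm4675 on the opposite strand. No source used here says how the authors assigned reads in such overlaps, so the counts of Sox1, Sox2 and Sox21 may share reads with these neighbours, whereas no annotated gene overlaps Sox3. RefSeq promoters (GRCm38.p6) were matched for 3 of the 4 genes. Because these genes were low together in mutants, sequences at their RefSeq starts are shown: the 250 bases before the start, with a CCAAT box (CCAAT or its other strand ATTGG) in capitals for Sox2 at chr3:34649745-34649994 (plus strand) and no capitals for Sox21 at chr14:118237031-118237280 (minus strand), where none of the searched motifs was found. For Sox1, 30 bases at chr8:12395526-12395555 (plus strand) are shown for the octamer ATGCAAAT, the binding sequence of POU factors, in capitals. The octamer began 18 bases after the RefSeq start, so these bases lie inside the transcript and not before it.
Sox2: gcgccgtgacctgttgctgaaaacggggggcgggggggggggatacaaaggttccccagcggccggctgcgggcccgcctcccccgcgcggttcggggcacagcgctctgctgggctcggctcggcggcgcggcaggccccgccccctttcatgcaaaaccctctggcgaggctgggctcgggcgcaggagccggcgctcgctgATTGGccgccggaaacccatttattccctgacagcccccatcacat
Sox21: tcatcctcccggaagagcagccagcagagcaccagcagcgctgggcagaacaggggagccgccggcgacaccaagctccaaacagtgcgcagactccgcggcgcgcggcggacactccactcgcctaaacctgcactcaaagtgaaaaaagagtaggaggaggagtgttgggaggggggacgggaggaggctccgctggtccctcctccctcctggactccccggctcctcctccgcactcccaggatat
Sox1: gccagcgcgccATGCAAATcaccgccgccg
The CCAAT box of Sox2 began 46 bases before the RefSeq start, and Sox1 also held a CCAAT box 237 bases before its start. Among 32851 mouse promoter windows of 300 bases (250 before and 50 after the start), read on both strands, the octamer was in 1.74%, a CCAAT box in 37.4%, the SOX core ACAAT in 31.0% and a TATA box (TATAAA) in 13.6%. Neither the SOX core nor the TATA box was in the 3 windows. The 250 bases before the start had a GC content of 72.0% for Sox2, 71.2% for Sox1 and 65.2% for Sox21, against a median of 52.4% over all windows.

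All 4 SoxB genes were lower in Commd10Null than in WT embryos at E8.5 and at E9.5. At E10.5 Sox3 remained 3.68-fold lower in the mutants and Sox1 was 1.99-fold lower, whereas Sox2 and Sox21 did not pass the test. These E10.5 calls depended on the libraries and the model. Without WT E10.5 replicate 1 all 4 genes passed, and in the model of all libraries Sox1 did not (edgeR adjusted p = 0.188). Whether the fold changes differed between members was not tested. The largest fold at E8.5 was that of Sox1, the member most restricted to neural cells (10.3-fold lower in Commd10Null), and the smallest was that of Sox2 (2.57-fold lower).

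**Figure D1:**
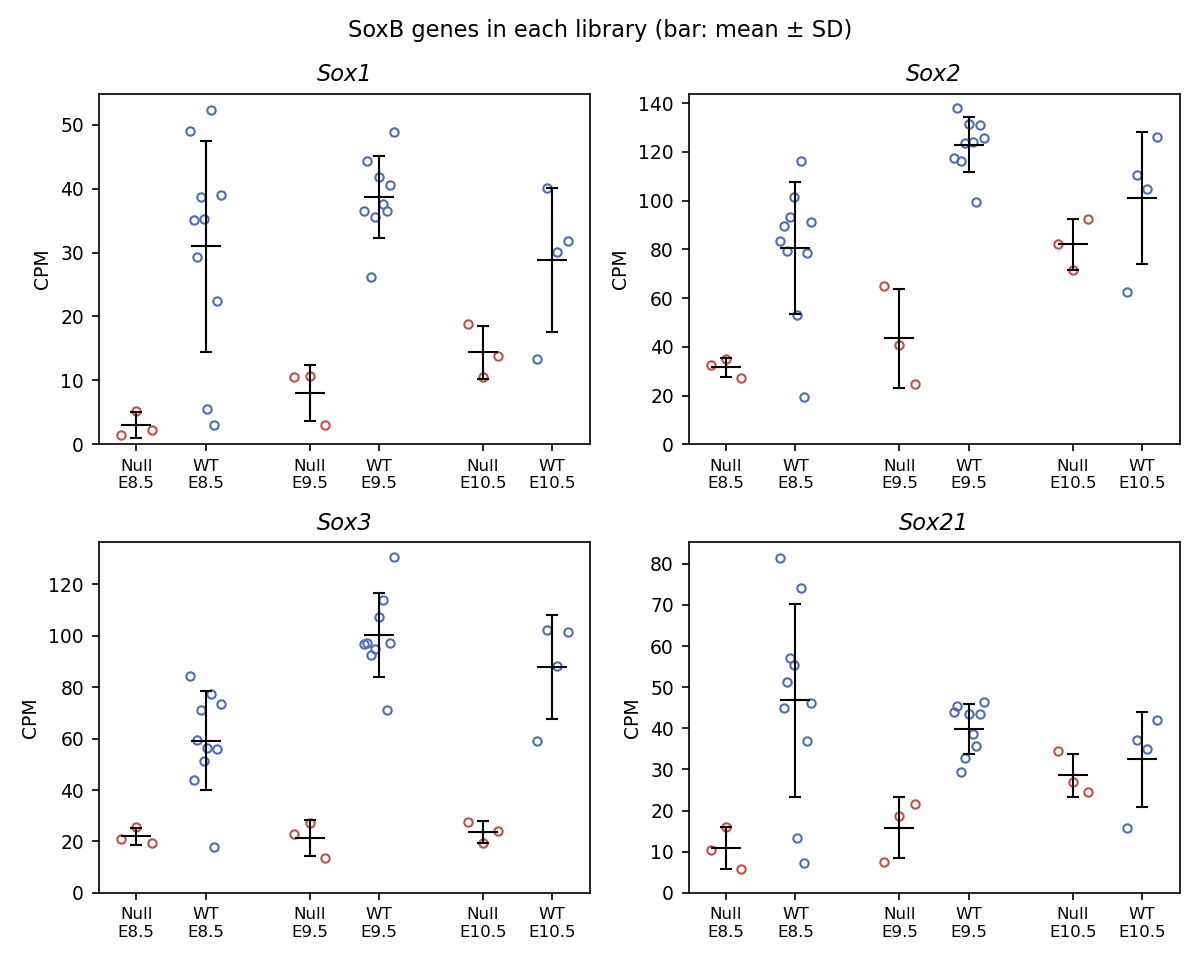
CPM of each SoxB gene (vertical axes) in every library, by genotype and stage, with Commd10Null left of WT at each stage. Circles are libraries and bars are the mean and SD. Sox3 stays between 13.5 and 27.5 CPM in all 9 Commd10Null libraries, while Sox2 reaches 71.7 to 92.5 CPM in Commd10Null E10.5 libraries.

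At E8.5, when the neural plate is folding, the comparison asks how much of the neural progenitor factors the mutants made. Sox1 was at 1.496, 5.26 and 2.20 CPM in Commd10Null libraries (11 to 41 counts each), against a lowest value of 3.00, a median of 35.2 and a highest value of 52.3 CPM in WT libraries. Sox2, which is shared by epiblast and neural progenitors, was at 32.5, 34.9 and 27.3 CPM in Commd10Null libraries, against a lowest value of 19.4, a median of 86.5 and a highest value of 116 CPM in WT libraries. For both genes 9 of 10 WT libraries lay above every mutant library, and the exception was WT replicate 8. Sox3, the X-linked SoxB1 gene, was at 20.9, 25.8 and 19.2 CPM in Commd10Null libraries, against a lowest value of 17.9, a median of 57.98 and a highest value of 84.4 CPM in WT libraries. Sox21, the SoxB2 member, was at 10.47, 16.0 and 5.87 CPM in Commd10Null libraries, against a lowest value of 7.32, a median of 48.7 and a highest value of 81.5 CPM in WT libraries. For Sox3 the same WT library lay below every mutant, and for Sox21 both WT replicate 6 (13.4 CPM) and replicate 8 fell in the mutant range.

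In edgeR's quasi-likelihood test with Benjamini-Hochberg adjustment over all genes, where an adjusted p of 0.05 or less passes, all 4 members were lower in Commd10Null E8.5 embryos, while 6.86% of the 13799 genes tested were lower. The log2 fold change was -3.37 (SE 0.74, adjusted p = 0.00898) for Sox1 and -1.44 (SE 0.32, adjusted p = 0.00947) for Sox3. It was -1.36 (SE 0.34, adjusted p = 0.0164) for Sox2 and -2.12 (SE 0.56, adjusted p = 0.0202) for Sox21. The members' median was -1.78, beside -0.02 for all genes tested. In whole embryos, fewer neural cells and less SoxB RNA per cell cannot be told apart. The calls rested on few mutants: without Commd10Null replicate 1 none of the 4 passed (adjusted p of 0.0670 for Sox1, 0.0847 for Sox2, 0.0632 for Sox3 and 0.102 for Sox21, with log2 fold changes of -3.04, -1.38, -1.40 and -2.10), and without replicate 3 Sox2 (-1.28, adjusted p = 0.0719) and Sox21 (-1.84, adjusted p = 0.0938) did not. Without WT replicates 6 and 8, a pair chosen after seeing their low values, the log2 fold change of Sox1 was -3.63 (adjusted p = 4.40e-05) and all 4 genes passed.

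At E9.5 every mutant library lay below every WT library for each member, a separation whose share over all genes was not counted. Sox1 was at 10.53, 10.6 and 3.02 CPM in Commd10Null libraries, against 26.1 to 48.9 CPM (median 37.6) in WT libraries. Sox2 was at 65.0, 40.7 and 24.6 CPM in Commd10Null libraries, against 99.5 to 138 CPM (median 124) in WT libraries. No mutant library reached the lowest WT library for either gene. Sox3 was at 22.8, 27.3 and 13.5 CPM in Commd10Null libraries, against 71.3 to 131 CPM (median 97.0) in WT libraries. Sox21 was at 7.39, 18.6 and 21.5 CPM in Commd10Null libraries, against 29.3 to 46.3 CPM (median 43.5) in WT libraries. The mutants differed among themselves: replicate 3, with the high yolk sac sum, had the lowest Sox1, Sox2 and Sox3 but the highest Sox21 of its group, and replicate 1 the highest Sox2 but the lowest Sox21.

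All 4 members passed as lower at E9.5, as did 17.4% of the 13483 genes tested. Sox1 (log2 fold change -2.24, SE 0.30, edgeR adjusted p = 4.51e-05) and Sox3 (-2.21, SE 0.21, adjusted p = 1.97e-06) fell the most, 4.71-fold and 4.63-fold. Sox2 was 2.77-fold lower (-1.47, SE 0.21, adjusted p = 7.66e-05), and Sox21 was 2.46-fold lower (-1.30, SE 0.25, adjusted p = 0.0009). The median over the members was -1.84, beside 0.02 for all genes. All 4 calls held when any of the 12 libraries was left out, Commd10Null replicate 3 included.

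At E10.5 Sox3 was the only member whose groups did not overlap. The share of all genes without such overlap was not counted, while 21.4% of the 13522 genes tested passed as lower. It was at 27.5, 19.3 and 24.2 CPM in Commd10Null libraries, against 59.1, 102, 88.2 and 101.5 CPM in WT libraries. Sox1 was at 18.8, 10.52 and 13.8 CPM in Commd10Null libraries, against 13.3, 40.1, 30.1 and 31.8 CPM in WT libraries. WT replicate 1 was the lowest library of its group for both genes, and for Sox1 it lay within the mutant range. Sox2 was at 82.0, 71.7 and 92.5 CPM in Commd10Null libraries, against 62.6, 111, 105 and 126 CPM in WT libraries. Sox21 was at 34.4, 26.9 and 24.4 CPM in Commd10Null libraries, against 15.6, 37.1, 34.9 and 42.1 CPM in WT libraries. For these genes WT replicate 1 lay below all 3 mutants, and the other WT libraries lay above them.

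Sox3 fell by 1.88 on the log2 scale at E10.5 (SE 0.18, edgeR adjusted p = 1.81e-06) and Sox1 by 0.99 (SE 0.29, adjusted p = 0.0143). The log2 fold change was -0.29 for Sox2 (SE 0.18, adjusted p = 0.207) and -0.17 for Sox21 (SE 0.25, adjusted p = 0.611). The members' median was -0.64, beside 0.01 for all genes. Without WT replicate 1 all 4 genes passed (Sox2 -0.48, adjusted p = 0.00262, and Sox21 -0.42, adjusted p = 0.0385), and without WT replicate 2 (Sox1 -0.79, adjusted p = 0.0507) or Commd10Null replicate 2 (Sox1 -0.81, adjusted p = 0.0629) only Sox3 did. WT replicate 1 also carried the high yolk sac sum, and the part of that in the SoxB values was not tested.

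**Figure D2:**
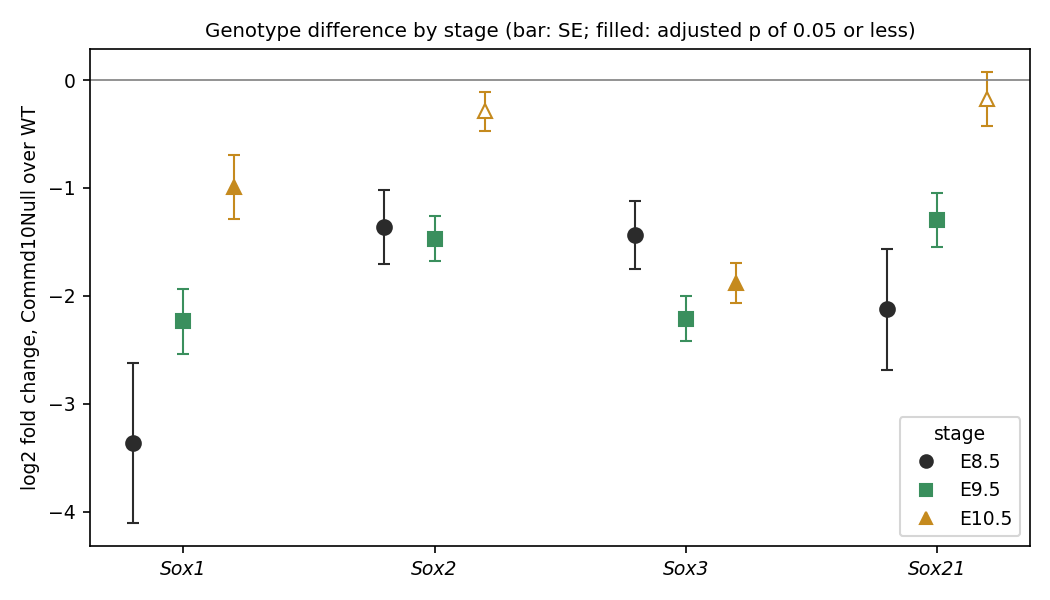
Log2 fold change of Commd10Null over WT (vertical axis) for each SoxB gene at E8.5 (circles), E9.5 (squares) and E10.5 (triangles), with bars of 1 SE and filled symbols for an edgeR adjusted p of 0.05 or less. Sox2 and Sox21 at E10.5 are open and lie at -0.29 and -0.17, while Sox3 stays between -2.21 and -1.44 at all stages.

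Whether the genotype effect itself differed between stages was tested in 1 edgeR model over all 32 libraries. Between E8.5 and E10.5 the deficit became smaller for Sox1 (difference of log2 fold changes 2.35, SE 0.78, adjusted p = 0.0336) and for Sox21 (1.93, SE 0.63, adjusted p = 0.0307), and 10.3% of the 15057 genes tested passed in that direction. The difference was 1.05 for Sox2 (adjusted p = 0.0786) and -0.46 for Sox3 (adjusted p = 0.452), which did not pass. From E8.5 to E9.5 no member passed, with 11.1% of genes called in either direction, and Sox3 had the smallest adjusted p (-0.82, adjusted p = 0.155). From E9.5 to E10.5 no member passed either, with 7.69% of genes called, and Sox2 came nearest (1.21, adjusted p = 0.0725).

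These differences depended on single libraries. Neither Sox1 (2.03, 2.18, 2.11 and 2.10) nor Sox21 (1.91, 1.64, 1.69 and 1.76) passed between E8.5 and E10.5 when Commd10Null E8.5 replicate 1, Commd10Null E8.5 replicate 3, WT E10.5 replicate 1 or Commd10Null E10.5 replicate 1 was left out, with adjusted p values of 0.0680 to 0.111. Without Commd10Null E10.5 replicate 3 Sox1 (2.39, adjusted p = 0.0550) did not pass. Without WT E8.5 replicates 6 and 8 together, Sox1 (2.63, adjusted p = 0.000361), Sox21 (2.18, adjusted p = 0.000407) and Sox2 (1.23, adjusted p = 0.00169) all passed. Sox2 passed between E8.5 and E10.5 without WT E8.5 replicate 8 (1.17, adjusted p = 0.00649), and between E9.5 and E10.5 without that library (1.19, adjusted p = 0.0135) or without Commd10Null E9.5 replicate 1 (1.60, adjusted p = 0.0184).

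In WT embryos Sox2 and Sox3 rose between E8.5, the neural plate stage, and E9.5. Sox2 averaged 123 ± 11.1 CPM at E9.5 and 80.5 ± 27.0 CPM at E8.5 (SD, n = 9 and 10), which is 0.59 on the log2 scale (SE 0.18, edgeR adjusted p = 0.00876). Sox3 averaged 100.2 ± 16.3 CPM at E9.5 and 59.1 ± 19.2 CPM at E8.5, which is 0.74 on the log2 scale (SE 0.17, adjusted p = 0.00105), and 25.3% of the 12718 genes tested were higher at E9.5. Sox1 averaged 38.7 ± 6.39 CPM at E9.5 and 31.0 ± 16.5 CPM at E8.5 (0.30, adjusted p = 0.432). Sox21 averaged 39.9 ± 6.10 CPM at E9.5 and 46.8 ± 23.4 CPM at E8.5 (-0.25, adjusted p = 0.467), and the E8.5 spread of both genes was wide. Without WT E8.5 replicates 6 and 8 together, Sox21 was lower at E9.5 (-0.51, adjusted p = 0.00275).

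From E9.5 to E10.5 no member passed in WT embryos, where 26.4% of genes were called in either direction. The WT E10.5 means were 28.8 ± 11.2 CPM for Sox1, 101 ± 27.1 for Sox2, 87.7 ± 20.2 for Sox3 and 32.4 ± 11.6 for Sox21 (SD, n = 4), and the log2 fold changes lay between -0.43 for Sox1 (adjusted p = 0.1003) and -0.19 for Sox3 (adjusted p = 0.309). Without WT E10.5 replicate 2 Sox1 passed (-0.63, adjusted p = 0.0288), and without replicate 4 Sox2 did (-0.41, adjusted p = 0.0209).

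In Commd10Null embryos no member passed between neighbouring stages. Sox1 averaged 2.99 ± 2.00 CPM at E8.5, 8.06 ± 4.36 CPM at E9.5 and 14.4 ± 4.17 CPM at E10.5 (SD, n = 3 each). Sox2 averaged 31.6 ± 3.88, 43.4 ± 20.3 and 82.1 ± 10.4 CPM at the same stages, and Sox21 10.8 ± 5.09, 15.8 ± 7.44 and 28.6 ± 5.22 CPM. Sox3 had means of 22.0 ± 3.40, 21.2 ± 7.01 and 23.7 ± 4.14 CPM, which lay within 1 SD of each other. Between E8.5 and E9.5 edgeR called 0% of 12856 genes, and DESeq2 called 66. In edgeR 661 genes had an unadjusted p under 0.05, about as many as chance alone would give at that threshold. Between E9.5 and E10.5 edgeR called 0.031% of 12905 genes. The smallest adjusted p of a member was 0.921 for the first step (Sox1, log2 fold change 1.41) and 0.358 for the next (Sox2, 0.92).

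Mutants were also set against WT embryos of earlier stages, in the model over all libraries. At E9.5 Commd10Null embryos were below WT embryos of E8.5 for every member, by -1.95 on the log2 scale for Sox1 (adjusted p = 0.00955), -1.56 for Sox21 (adjusted p = 0.0121), -1.48 for Sox3 (adjusted p = 0.000355) and -0.89 for Sox2 (adjusted p = 0.0285). At E10.5 they were below WT embryos of E9.5 for Sox3 (-2.08, adjusted p = 2.15e-06) and Sox1 (-1.42, adjusted p = 0.0375), while the values for Sox2 (-0.58, adjusted p = 0.139) and Sox21 (-0.48, adjusted p = 0.438) did not pass. Against WT embryos of E8.5, Commd10Null E10.5 embryos were lower for Sox3 alone among the 4 (-1.32, adjusted p = 0.000563), and the log2 fold changes were -1.10 for Sox1 (adjusted p = 0.0955), -0.71 for Sox21 (adjusted p = 0.210) and 0.03 for Sox2 (adjusted p = 0.957).

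Ordered by mean CPM, the 3 Commd10Null groups were the lowest for Sox1, Sox3 and Sox21. For Sox1 the order from low to high was Commd10Null E8.5, E9.5 and E10.5, then WT E10.5, E8.5 and E9.5, and for Sox21 it was the same mutants in the same order, then WT E10.5, E9.5 and E8.5, with no neighbours that passed in the model over all libraries. In that model Sox1 was 1.001 higher on the log2 scale in WT E10.5 than in Commd10Null E10.5 embryos (adjusted p = 0.188), whereas the fit of that stage alone passed (adjusted p = 0.0143). For Sox3 it was Commd10Null E9.5, E8.5 and E10.5, then WT E8.5, E10.5 and E9.5, and WT E8.5 lay above Commd10Null E10.5 (log2 difference 1.32, edgeR adjusted p = 0.000563) and WT E10.5 above WT E8.5 (0.57, adjusted p = 0.0305). For Sox2, Commd10Null E10.5 lay between the WT groups of E8.5 and E10.5, and the only neighbours to pass were WT E8.5 over Commd10Null E9.5 (0.89, adjusted p = 0.0285). No other neighbours passed for any member in that model.

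Since each library gives about 1 tag per transcript, the make-up of the SoxB1 RNA can be read as the share of each gene in the summed counts of Sox1, Sox2 and Sox3, which needs no scaling between libraries. At E10.5 Sox2 held 63.9%, 70.6% and 70.9% of these counts in Commd10Null libraries, against 46.4%, 43.7%, 47.0% and 48.6% in WT libraries. Sox3 held 21.5%, 19.0% and 18.5% in Commd10Null libraries, against 43.8%, 40.4%, 39.5% and 39.2% in WT libraries. The mutant and WT libraries did not overlap for either gene, and the exact two-sided permutation p was 0.0571, the smallest that 3 against 4 libraries can give. Sox1 held 11.9 ± 2.41% in Commd10Null libraries and 12.9 ± 2.50% in WT libraries (exact permutation p = 0.571). Without WT replicate 1 the shares in WT libraries were 46.4 ± 2.46% for Sox2 and 39.7 ± 0.64% for Sox3, and the groups still did not overlap (exact permutation p = 0.1, the smallest that 3 against 3 libraries can give). The shares rested on 820 to 1044 counts in Commd10Null E10.5 libraries and 1277 to 2245 counts in WT E10.5 libraries.

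At the earlier stages the Sox2 share again averaged more in Commd10Null than in WT libraries. It was 56.0 ± 3.12% in Commd10Null and 47.5 ± 4.40% in WT libraries at E8.5 (exact permutation p = 0.0210), and 59.2 ± 7.15% in Commd10Null and 47.1 ± 2.67% in WT libraries at E9.5 (exact permutation p = 0.00909, the smallest possible there). The Sox1 share was 5.07 ± 2.67% in Commd10Null and 16.6 ± 5.99% in WT libraries at E8.5 (exact permutation p = 0.0280), and 10.52 ± 3.10% in Commd10Null and 14.8 ± 1.81% in WT libraries at E9.5 (exact permutation p = 0.0182). The Sox3 share was 38.9 ± 0.69% in Commd10Null and 35.9 ± 7.04% in WT libraries at E8.5 (exact permutation p = 0.469), and 30.3 ± 6.16% in Commd10Null and 38.1 ± 2.83% in WT libraries at E9.5 (exact permutation p = 0.0182). Without Commd10Null E9.5 replicate 3 the exact permutation p at E9.5 was 0.0727 for the Sox1 share, 0.0364 for Sox2 and 0.0727 for Sox3, and without WT E8.5 replicates 6 and 8 the Sox3 share at E8.5 was 38.9 ± 0.69% in Commd10Null and 33.2 ± 4.56% in WT libraries (exact permutation p = 0.0242). Over the 21 permutation tests of shares and ratios none passed after Benjamini-Hochberg adjustment (smallest adjusted p = 0.0734).

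**Figure D3:**
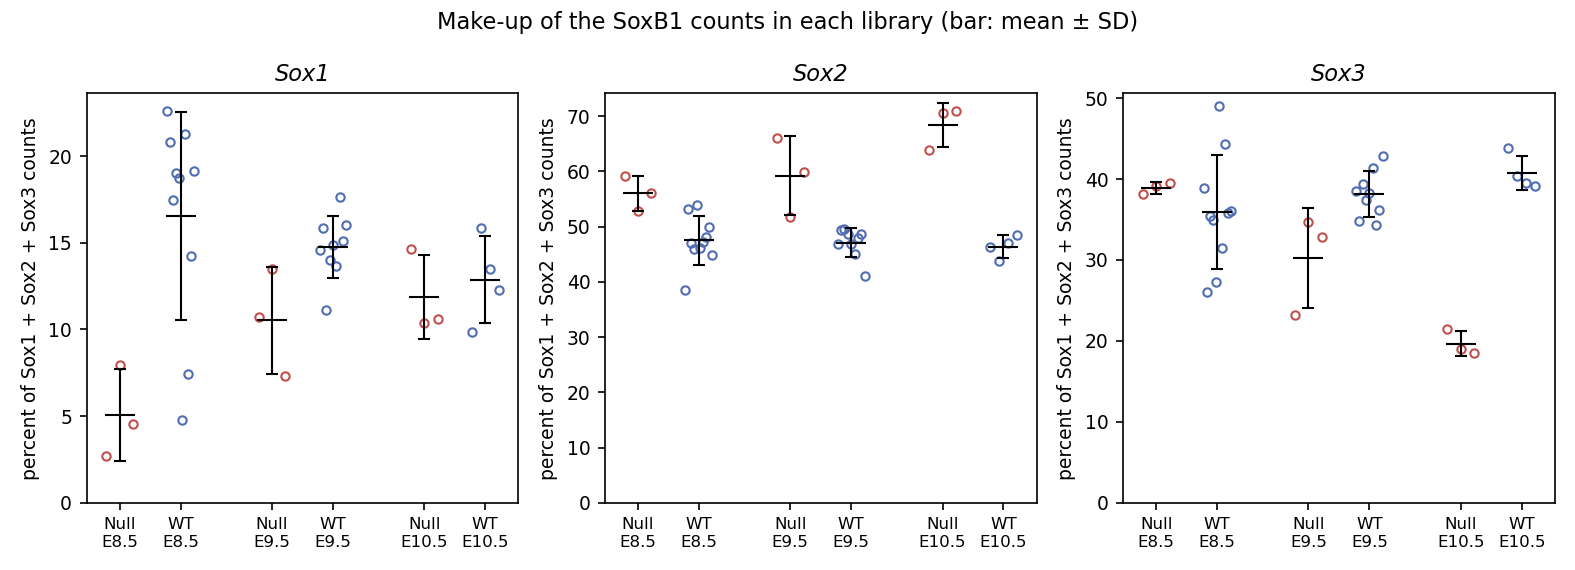
Share of Sox1, Sox2 and Sox3 in the summed counts of the 3 SoxB1 genes (percent, vertical axes) in every library, with Commd10Null left of WT at each stage, circles for libraries and bars for mean and SD. At E10.5 the Sox2 share is 68.5 ± 3.96% in Commd10Null against 46.4 ± 2.01% in WT libraries, and the Sox3 share is 19.7 ± 1.57% in Commd10Null against 40.7 ± 2.10% in WT libraries.

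Many neural progenitor genes were lower in the mutants. Of 25 progenitor markers, 11 of the 24 tested were lower in Commd10Null embryos at E8.5 and 0 were higher (median log2 fold change -1.59), 17 of 24 were lower and 2 higher at E9.5 (median -2.40), and 12 of 25 were lower and 4 higher at E10.5 (median -0.87), beside medians of -0.02, 0.02 and 0.01 over all genes. Over all genes tested 6.73%, 20.2% and 20.9% were higher and 6.86%, 17.4% and 21.4% lower at these stages. The same shares apply to the lists that follow. The 3 with the smallest p at E8.5 were Msi1, an RNA-binding protein of progenitors (-0.62, SE 0.12, edgeR adjusted p = 0.00526), Pax6, which patterns the neural tube and eye (-5.65, SE 1.42, adjusted p = 0.0165), and Nkx6-1, a ventral neural tube factor (-2.29, SE 0.60, adjusted p = 0.0196). At E9.5 they were Zic1 (-9.28, adjusted p = 3.09e-10), Hes5, a Notch target (-4.42, adjusted p = 2.44e-09), and Pou3f2 (-7.78, adjusted p = 1.14e-08). At E10.5 they were Pou3f3 (-4.93, adjusted p = 4.94e-09), Zic1 and Hes5, whereas Fgf15 (2.10), Hesx1 (2.89), Rax (2.15) and Pou3f1 (0.58) were higher, of which Hesx1 and Rax mark the early forebrain and eye field.

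**Figure D4:**
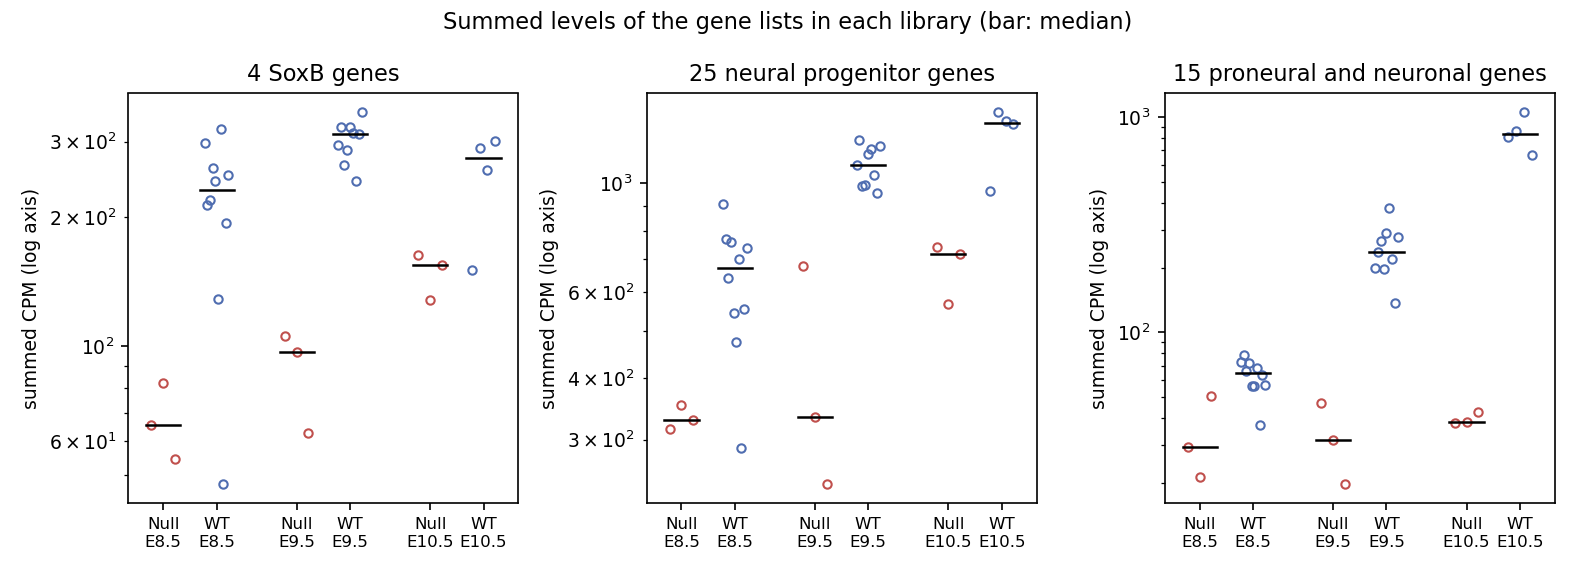
Summed CPM (vertical log axes) of the 4 SoxB genes, the 25 neural progenitor genes and the 15 proneural and neuronal genes in every library, with Commd10Null left of WT at each stage, circles for libraries and bars for medians. Proneural and neuronal genes lie at 38.2 to 42.8 CPM in Commd10Null E10.5 libraries against 662 to 1052 CPM in WT E10.5 libraries.

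Set against the summed counts of the progenitor list in the same library, the members differed in size and in sign. The log2 ratio of Sox1 to that sum was -6.92 in Commd10Null and -4.69 in WT libraries at E8.5, a difference of -2.24 (exact permutation p = 0.0210). For Sox2 it was -3.40 in Commd10Null and -3.05 in WT libraries, a difference of -0.35 (exact permutation p = 0.189). At E10.5 the differences were 0.63 for Sox2 and 0.78 for Sox21, whose mutant libraries all lay above the WT libraries, and -0.98 for Sox3, whose mutant libraries all lay below them, each with the smallest exact permutation p possible (0.0571). None of these ratios passed after adjustment over the 21 tests. The sign depended on the list: against the summed proneural and neuronal genes, the difference for Sox3 at E10.5 was 2.52 in place of -0.98, and that for Sox1 at E9.5 was 0.50 in place of -0.92.

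Genes of neuronal differentiation, which SoxB1 proteins are known to hold back, also had lower values in mutants. Of 15 proneural and neuronal genes 3 of the 6 tested were lower in Commd10Null embryos at E8.5 (median log2 fold change -1.34), 14 of 15 at E9.5 (-6.32, or -5.68 with the 7 genes without a mutant count at their bound) and 15 of 15 at E10.5 (-4.88), and none was higher. Genes without a mutant count entered these tests through the WT libraries alone. Neurod1, Nhlh2 and Insm1, with 5, 3 and 10 counts over the Commd10Null E9.5 libraries, entered mainly through the WT libraries. So did Neurod4 and Neurod1 at E10.5, with 4 and 9 mutant counts. How many neuronal genes were lower at E9.5 and E10.5, and how their median stood to that of the progenitor genes, is therefore not read as a result. At E8.5 the 3 were Map2 (-1.64, edgeR adjusted p = 0.0193), Elavl4 (-1.58, adjusted p = 0.0217) and Tubb3 (-1.10, adjusted p = 0.0240), which are general neuronal genes. At E9.5 the proneural factor Neurog1 had no count in any Commd10Null library and was at least 104-fold lower (the mutant group being set at 3 counts in all), and Neurod1 fell by 5.97 on the log2 scale (adjusted p = 2.26e-07). At E10.5 the smallest p values were those of Elavl3 (-5.11, adjusted p = 1.50e-09), Tubb3 (-4.88, adjusted p = 1.50e-09) and Elavl4 (-3.75, adjusted p = 1.65e-09).

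The POU and PAX factors that bind beside SoxB1 proteins, and the remodeller Chd7, were followed as a list of 7 partners. Of these, Pax6, Pou3f1, Pou3f2 and Pou3f3 are also among the progenitor genes above, so the lists are not independent. At E8.5 3 of 7 were lower and 0 higher (median log2 fold change -0.55), at E9.5 4 of 6 were lower and 1 higher (-5.18), and at E10.5 4 of 6 were lower and 2 higher (-2.001). Pou3f2 had no count in Commd10Null E8.5 libraries and was at least 30.8-fold lower, and Pax6 fell at every stage (-5.65, -4.46 and -1.32). Pou3f1, which is also made in the epiblast, was higher in mutants at E9.5 (0.73, edgeR adjusted p = 0.0262) and E10.5 (0.58, adjusted p = 0.0374), and Chd7 was lower at E8.5 (-0.55, adjusted p = 0.0117) but higher at E10.5 (0.43, adjusted p = 0.000973).

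Known SoxB1 targets did not move one way. Nes, the progenitor filament gene with a SOX and POU site in its enhancer, was lower in Commd10Null embryos at E9.5 (-2.23, edgeR adjusted p = 2.26e-06) and E10.5 (-1.40, adjusted p = 3.88e-07) but did not pass at E8.5 (-0.66, adjusted p = 0.0832). Utf1, a target of Sox2 in pluripotent cells, was higher at E8.5 (3.02, adjusted p = 0.00575) and E9.5 (5.09, adjusted p = 9.53e-05), Nanog was higher at E8.5 (2.90, adjusted p = 0.0279) and Fgf4 at E10.5 (2.35, adjusted p = 0.0134). Without Commd10Null replicate 3, Utf1 at E9.5 was at 3.20 (adjusted p = 0.00253). Nanog (4.81) and Fgf4 (2.95) passed the count filter at E9.5 only in that fit. They entered it mainly through the mutants, so their direction there is not read as a result. Utf1 likewise had 28 counts in all WT E9.5 libraries together, and Fgf4 had 24 in all WT E10.5 libraries. The higher calls of Utf1 at E9.5 and of Fgf4 at E10.5, counted below, are therefore not read as results either. In the fits of all libraries of a stage 2 of 4 targets were higher at E8.5 and 0 lower (median 1.40), and 1 of 2 was higher and 1 lower at E9.5 (median 1.43) and at E10.5 (median 0.47).

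Other branches of the SOX family had calls in both directions. Of 15 such genes 6 of 10 tested were lower and 1 higher at E8.5 (median log2 fold change -0.85), 7 of 12 were lower and 2 higher at E9.5 (-0.92), and 5 of 12 were lower and 2 higher at E10.5 (-0.32). Of all genes 6.86%, 17.4% and 21.4% were lower and 6.73%, 20.2% and 20.9% higher. The higher calls at E9.5 and E10.5 are thus near the share of all genes. Sox11, a SoxC gene of differentiating neurons and many other embryonic tissues, was lower at all 3 stages (-1.02, -1.19 and -0.62, edgeR adjusted p = 0.00343, 0.00155 and 9.45e-06). Sox10, a SoxE gene of the neural crest, had no count in Commd10Null E8.5 libraries (at least 85.3-fold lower) and fell by 5.63 at E9.5 (adjusted p = 5.53e-07) and by 1.07 at E10.5 (adjusted p = 0.000407). Of the SoxF genes of endothelium and endoderm, Sox7 was higher at all 3 stages (1.08, 1.69 and 1.87), although not at E9.5 without Commd10Null replicate 3 (1.03, adjusted p = 0.0675). Sox17 was higher at E9.5 (1.97, adjusted p = 5.75e-05) and E10.5 (1.31, adjusted p = 0.000275) and had a log2 fold change of 1.18 at E8.5 (adjusted p = 0.0511), which passed without WT replicates 6 and 8 (1.55, adjusted p = 0.00286). Sox18, the third SoxF gene, was not tested at E8.5 and did not pass at E9.5 (0.32, adjusted p = 0.712) or E10.5 (0.42, adjusted p = 0.533). Sox14, the other SoxB2 gene, had 39 counts over all 32 libraries and was not tested.

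The noncoding genes that enclose Sox2 and Sox1 were both lower in mutants at E9.5. Sox2ot (ENSMUSG00000105265) had 3, 2 and 3 counts in Commd10Null E8.5 libraries, against 1 to 29 counts in WT libraries (log2 fold change -2.36, edgeR adjusted p = 0.0872), and passed without WT replicates 6 and 8 (-2.61, adjusted p = 0.0227). At E9.5 it had 0 counts in each Commd10Null library, against 11 to 50 in WT libraries, and was at least 31.2-fold lower (adjusted p = 2.93e-05). At E10.5 it had 6, 6 and 5 counts in Commd10Null libraries, against 33 to 36 in WT libraries (-2.44, SE 0.41, adjusted p = 0.000291), the stage at which Sox2 itself did not pass. Sox1ot (ENSMUSG00000047935) had 0 counts in all Commd10Null libraries of E8.5 and E9.5, against up to 23 and 3 to 13 in WT libraries, was at least 8.12-fold lower at E9.5 (adjusted p = 0.000739), and did not pass at E10.5 (-0.48, adjusted p = 0.690).

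Markers of other tissues in which SoxB genes are made, or that a whole embryo could hold, differed with the genotype to unequal degrees, beside 6.73%, 20.2% and 20.9% of all genes higher and 6.86%, 17.4% and 21.4% lower at the 3 stages. Of 8 epiblast genes 4 of 8 were higher in Commd10Null embryos at E8.5 (median log2 fold change 2.00), 6 of 6 at E9.5 (3.86), and 3 of 5 at E10.5 with 1 lower (1.13). Their sum was 407 to 1225 CPM in Commd10Null and 233 to 678 CPM in WT libraries at E8.5, 185 to 542 CPM in Commd10Null and 63.3 to 91.3 CPM in WT libraries at E9.5, and 73.8 to 109 CPM in Commd10Null and 34.8 to 52.2 CPM in WT libraries at E10.5. Of 8 neuromesodermal genes of the tail bud 0 of 7 passed at E8.5 (-0.24), 3 of 7 were higher at E9.5 (1.16), and 4 of 6 were higher and 1 lower at E10.5 (2.50). Their sum was 217 to 326 CPM in Commd10Null and 41.9 to 561 CPM in WT libraries at E8.5, 95.8 to 251 CPM in Commd10Null and 24.5 to 76.0 CPM in WT libraries at E9.5, and 49.5 to 68.2 CPM in Commd10Null and 16.7 to 25.8 CPM in WT libraries at E10.5. Of 7 foregut genes 1 of 6 was higher at E8.5 (0.17), 4 of 7 were higher and 1 lower at E9.5 (1.18), and 6 of 7 were higher at E10.5 (1.35), whereas of 7 placode genes 2, 3 and 2 of 7 were lower at the 3 stages and 0 higher (-1.21, -1.17 and -0.15), which at E10.5 is near the share of all genes. Without WT E8.5 replicates 6 and 8, 5 of 7 placode genes were lower and 2 of 6 foregut genes higher at E8.5. Without WT E10.5 replicate 1 no epiblast or neuromesodermal gene was lower at E10.5. Utf1, Fgf5 and Tdgf1 had 28, 54 and 54 counts over all WT E9.5 libraries and entered those tests mainly through the mutants. The same holds at E10.5 for Tdgf1, Cdx4, Nkx1-2 and Pyy, with 4, 26, 23 and 15 WT counts. How many epiblast, neuromesodermal and foregut genes were higher at E9.5 and E10.5 thus partly follows from the filter and is not read as a result.

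Extraembryonic and maternal markers also differed with the genotype. Of 9 yolk sac endoderm genes 1 of 9 was higher in Commd10Null embryos at E8.5 (median log2 fold change 1.25), 9 of 9 at E9.5 (5.94), and 2 of 6 were lower at E10.5 (-1.69). The lower values at E10.5 rested on WT replicate 1, the only WT library of that stage above 71.6 CPM in their sum: without it 3 of 5 were higher and 1, Afp, was lower (median 1.21). Without Commd10Null replicate 3, 8 of 9 were higher at E9.5 (3.09), and without WT replicates 6 and 8, 6 of 9 were higher at E8.5 (1.57). The sum of the yolk sac genes was 2519 to 4015 CPM in Commd10Null and 280 to 2753 CPM in WT libraries at E8.5, 168 to 4653 CPM in Commd10Null and 27.6 to 127 CPM in WT libraries at E9.5, and 50.1 to 107 CPM in Commd10Null and 61.5 to 1126 CPM in WT libraries at E10.5. Of 8 trophoblast genes 2 of 7 were higher at E8.5 (1.21), 6 of 6 at E9.5 (5.24; without Commd10Null replicate 3, 5 of 6 with 1 lower, 3.27) and 3 of 4 at E10.5 with 1 lower (1.77). Their sum was 73.1 to 121 CPM in Commd10Null and 39.2 to 60.8 CPM in WT libraries at E8.5, 80.0 to 728 CPM in Commd10Null and 23.1 to 31.2 CPM in WT libraries at E9.5, and 31.3 to 37.1 CPM in Commd10Null and 28.5 to 31.6 CPM in WT libraries at E10.5. Of 7 maternal decidua genes the 4 that could be tested at E8.5 were higher (3.93), as was the 1 at E9.5 (7.27), and none could be tested at E10.5. Most of these, and some of the trophoblast genes at E9.5, had few WT counts and entered the tests mainly through the mutants. So did the yolk sac genes Apoa4, Apob and Cubn at E9.5, with 29, 50 and 50 counts over all WT libraries of that stage. How many decidua genes were higher, and how many trophoblast and yolk sac genes at E9.5, is therefore not read as a result. The sum of the decidua genes was 48.3 to 261 CPM in Commd10Null and 2.04 to 47.1 CPM in WT libraries at E8.5. Of 5 erythroid genes 3 of 4 were higher at E8.5 (2.88), 1 of 5 was lower at E9.5 (-0.50; 4 of 5 without Commd10Null replicate 3, -1.46) and 5 of 5 were lower at E10.5 (-2.51). The erythroid sum at E8.5 was 979, 274 and 11.7 CPM in Commd10Null libraries, against 3.72 to 208 CPM in WT libraries. Commd10Null E8.5 replicate 3 thus lay within the WT range. How far these tissues contributed to the SoxB differences was not tested.

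WT E8.5 embryos, the group with the most libraries, varied widely in the SoxB genes, and the members varied together. Over the 10 libraries the log2 CPM of Sox1 and Sox21 had a Pearson r of 0.988 and a Spearman rho of 0.891 (adjusted permutation p = 0.00048 and 0.00684 over 6 pairs), and r was 0.871 without replicates 6 and 8, the libraries farthest from the median of Sox1. Sox1 and Sox2 had r = 0.924 and rho = 0.830 (adjusted permutation p = 0.00228 and 0.0165), and r was 0.657 without those libraries. Sox1 and Sox3 had r = 0.783 and rho = 0.794 (adjusted permutation p = 0.0350 and 0.0165), with r = 0.628 without them. Sox2 and Sox21 had r = 0.918 and rho = 0.745 (adjusted permutation p = 0.00552 and 0.0205), with r = 0.466 without them. Sox3 and Sox21 had r = 0.814 and rho = 0.758 (adjusted permutation p = 0.0312 and 0.0205), with r = 0.325 without replicates 1 and 8, and Sox2 and Sox3 had r = 0.860 and rho = 0.430 (adjusted permutation p = 0.0545 and 0.22), with r = 0.177 without replicates 6 and 8. Replicates 6 and 8 thus stood apart from the other libraries, and apart from that of Sox1 with Sox21 the relations rest in part or mainly on the libraries left out. Replicate 8, the lowest for all 4 genes but not low in every tissue, had the highest neuromesodermal sum of its group (561 CPM, against 41.9 to 317 CPM in the others), and replicate 6 the highest yolk sac sum (2753 CPM).

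By Pearson r of log2 CPM over all 32 libraries, which share the genotype and stage differences, the genes most like each member among 15018 others differed between members. For Sox1 they were Wscd1 (r = 0.940), Ccdc177 (0.930), Sox2 (0.923), Pax6 (0.910) and Sfrp1 (0.905), and for Sox2 Ccdc177 (0.937), Sox1 (0.923), Zcchc3 (0.907), C130026L21Rik (0.897) and Wscd1 (0.895). For Sox21 they were Itih5 (0.891), Sox1 (0.880), Grem1 (0.857), Fezf1 (0.851) and Ptn (0.845). For Sox3 they were U2af2 (0.924), Hnrnpc (0.923), Pinx1 (0.921), Anp32e (0.912) and Cops7b (0.910), and U2af2 and Hnrnpc are broadly made RNA-processing factors. The nearest other members stood at rank 69 for Sox3 (Sox1, r = 0.845) and at rank 2 for Sox21 (Sox1), and Sox21 stood at rank 689 in the list of Sox3 (r = 0.700). Over the 23 WT libraries alone r was 0.786 for Sox3 with U2af2 and 0.893 for Sox3 with Sox2, and 0.926 for Sox21 with Sox1.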

How the data were processed

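RNA of whole mouse embryos (32 libraries) was measured by QuantSeq 3′ FWD. The authors trimmed reads (BBDuk by the study's methods, Trimmomatic 0.35 by the submitters' processing notes), mapped the reads with STAR to mm10 coding regions, and deposited raw counts per Ensembl identifier. The counting step (tool, strand option, annotation) was not given in the sources used here. Tags that fall outside the regions counted are missing from the values. Groups came from the labels. The values of 1 listed gene are not reported here.

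From the deposited counts, edgeR 4.0.16 (R 4.3.3) gave TMM factors, the default filter (minimum count 10, minimum total 15), quasi-likelihood tests of the groups of each comparison, and Benjamini-Hochberg adjustment over all genes tested. Stage differences used 1 model of all 32 libraries. SE is the absolute log2 fold change over the square root of F. Named were all 4 members, overlapping noncoding genes, the 5 genes most like each member (log2 CPM with a prior count of 2), and up to 3 examples by smallest p for each list, with further list members named after their values were seen. Members and lists were chosen with earlier results of these data known. The lists share genes: Nes is a target and a progenitor gene, Utf1 and Nanog are targets and epiblast genes, and Sox17 is a SOX and a foregut gene. A gene with few counts in either genotype enters a test through the other genotype. List counts made of such genes thus partly follow from the filter. Correlations used 100000 resamples. The fits were tested on simulated data. Libraries of a group differed by a chi-square per gene of 3.00 to 81.6, so none was a duplicate. Alternatives were DESeq2 1.42.0, other factors and filters, 1 model, a replicate block and leaving out libraries, where the pair of WT E8.5 replicates 6 and 8 and the lists without libraries that stood apart were chosen after seeing the data. Statistics also used scipy 1.17.1 and figures matplotlib 3.10.9.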

Additional observations from a re-analysis of the deposited data

Results flagged for a closer look

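The genotype effect on Sox1 and on Sox21 differed between E8.5 and E10.5 by a test of the difference itself. The log2 fold change of Commd10Null over WT was 2.35 higher at E10.5 than at E8.5 for Sox1 (edgeR adjusted p = 0.0336) and 1.93 higher for Sox21 (adjusted p = 0.0307). Over the alternatives tried, the adjusted p lay between 0.000361 and 0.111 for Sox1 and between 0.000407 and 0.105 for Sox21. By the gap between the lowest or highest library and its nearest neighbour, no single library was marked in the 12 combinations of member and WT group looked at, of which chance would mark about 1 in 20. That gap does not mark a pair of low libraries, such as WT E8.5 replicates 6 and 8 (Sox1 at 5.50 and 3.00 CPM, against 22.3 to 52.3 CPM in the other 8).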

How the results depend on the processing

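Outside leave-one-out, 313 of 336 values that answer a comparison kept their direction and side of the threshold. The log2 fold changes are those of Commd10Null over WT unless another pair is named. Leaving out 1 library gave 0 to 4 passing members at E8.5 (Sox1 -4.06 to -3.04, Sox2 -1.48 to -1.27, Sox3 -1.55 to -1.35, Sox21 -2.51 to -1.84) and 1 to 4 at E10.5 (Sox1 -1.25 to -0.79, Sox2 -0.48 to -0.18, Sox21 -0.42 to -0.039). It gave 0 to 1 for WT E10.5 against E9.5, 0 to 3 for E10.5 minus E8.5 (Sox1 2.03 to 3.06, Sox21 1.64 to 2.33, Sox2 0.87 to 1.17) and 0 to 1 for E10.5 minus E9.5 (Sox2 0.93 to 1.60). Directions turned for Sox2 at E9.5 minus E8.5 (-0.57 to 0.13), for Sox3 in Commd10Null E9.5 against E8.5 (-0.29 to 0.21) and E10.5 against E9.5 (-0.085 to 0.39), and for the ratio to the progenitor list of Sox1 at E10.5 (-0.25 to 0.10) and Sox21 at E9.5 (-0.55 to 0.95).

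Replicate numbers showed no clear pairing of the genotypes: no genotype comparison had every pair above a correlation of 0.1, and 0 of 3 mutant libraries correlated best with their own number at any stage. Between Commd10Null E10.5 and E9.5 libraries 3 of 3 did, at correlations of 0.017 to 0.070. So few pairs cannot exclude shared litters within a stage. With the replicate number as a block, Sox21 at E9.5 (-1.37, edgeR adjusted p = 0.101) and Sox1 at E10.5 (-0.86, adjusted p = 0.0544) did not pass, Sox21 at E10.5 was at 0.038, 1 member passed at E10.5, and 1 (Sox2, -0.33) for WT E10.5 against E9.5. The block called 610 genes at E9.5, against 5068 without it.

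At E10.5 only Sox3 passed in the model of all libraries and with the fold minimum of 1 added. Sox1 did not pass in that model (-1.001, edgeR adjusted p = 0.188) and fell short of the minimum (-0.99). Without a filter Sox2 passed at E10.5 (-0.31), as did Sox1 for WT E10.5 against E9.5. For E10.5 minus E9.5 Sox2 passed, as the 1 member, with DESeq2 (1.17) and without WT E8.5 replicates 6 and 8 (1.204), a choice made after seeing the data, which also gave Sox2 1.23 for E10.5 minus E8.5 and 0.028 for E9.5 minus E8.5. Against the neuronal list, differences of the ratios that were negative against the progenitor list turned positive, to 0.50 (Sox1), 1.32 (Sox2) and 0.65 (Sox3) at E9.5, and 3.46 (Sox1) and 2.52 (Sox3) at E10.5. On the CPM scale Sox2 and Sox3 passed (r = 0.71). The cause was not tested in these cases.

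The model of all libraries called 3651 genes at E10.5 (5724 in the stage's own fit), 1248 for WT E10.5 against E9.5 (3526), 565 for Commd10Null E9.5 against E8.5 (0) and 1554 for E10.5 against E9.5 (4). For the last pair DESeq2 called 372, no filter 288, the block 22, and no factors or leaving out the most abundant identifier 1; for the pair before, no filter called 66. Without factors the median of all genes was -0.17 at E9.5, -0.13 at E10.5 and 0.11 for WT E9.5 against E8.5, and the share of called genes that were higher was 33.6% (53.7% with factors), 35.0% (49.4%) and 65.9% (49.3%), while every member kept its direction. Sox1 could not be tested in Commd10Null E9.5 against E8.5 under the strict filter. Low counts limit Sox1 in mutants most.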
